A study of Mus musculus with 15 samples.

Results

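The contractile genes of smooth muscle are *Acta2*, *Actg2*, *Tagln*, *Cnn1*, *Myh11*, *Myl9*, *Tpm1*, *Tpm2*, *Cald1* and *Lmod1*. Probes were taken as belonging to them when the transcript named for a non-control probe was a RefSeq transcript of 1 of these 10 genes, which gave 20 of the 56605 distinct probes of the array, each spotted once. Of these, 16 probes of 8 genes were tested, among 29334 probes in all that all arrays of 1 group or more showed well above background. The cells were Mouse Embryonic Fibroblasts (MEFs) of the established 3T3 line (Balb/c/3T3 clone A31, so a single clone). Total RNA of 15 samples was labelled with Cy3 and hybridized to 1-color oligonucleotide arrays, 3 arrays in each of 5 groups: untreated controls, TGFβ1 (5 ng/ml), TNFα (10 ng/ml), IL-1β (1 ng/ml), and IL-6 (20 ng/ml) with the soluble receptor sIL-6Rα (25 ng/ml). The labels name no transgene or deletion. They give 24 or 72 h of culture, with no time for each array. The paper names the shorter time for the control, TNFα and TGFβ1 arrays and none for the others. Arrays are called by their group and the number that opens their label (control 11).

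When fibroblasts become myofibroblasts, they assemble stress fibers from actins, tropomyosins, calponin, caldesmon and myosin, proteins otherwise typical of smooth muscle. TGFβ1 is the classical inducer of this program. Many of these genes carry CArG boxes, the DNA element bound by serum response factor (SRF), which acts with myocardin or with the myocardin-related factors that sense the pool of free actin.

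Levels are log2 signals minus the 75th percentile of the array, so they rank arrays for 1 probe and not the transcripts of different genes. Summed levels add the signals of the probes of a list, so they follow its brightest probes. Between 48.3% and 54.9% of probes were well above background per array, no spot was saturated, and the 3 arrays of a group limit the precision of every value. All 8 fibroblast markers looked up (such as *Col1a1*, *Vim* and *Thy1*) were detected on all 15 arrays. So were 3 of 6 leukocyte markers, 1 of 4 endothelial markers and 0 of 6 skeletal muscle markers. Of 7 markers of mature smooth muscle and pericytes, *Smtn* was detected on all arrays, while *Myh11*, *Myocd*, *Des* and *Kcnmb1* were detected on none. The summed level of the list (log2) was 2.33 to 2.89 in control and 3.21 to 3.50 with TGFβ1. Nearly all of this sum is *Smtn*, at 2.29 to 2.86 in control and 3.19 to 3.47 with TGFβ1. Of the 3 genes of this list that were tested, with TGFβ1 *Smtn* rose by 0.64 ± 0.20, *Rgs5* was lower, and *Cspg4*, not detected on any control array and on all 3 TGFβ1 arrays, was at least 4.49-fold higher. Of 4 epithelial markers none was detected on all arrays, and their summed level was -4.59 to -3.03 in control and -2.82 to -1.39 with TGFβ1. The largest part of that sum is *Krt18*, at -3.71, -5.60 and -3.68 on control 1, 6 and 11. On TGFβ1 2, 7 and 12 *Krt18* was at -1.89, -3.81 and -1.98, which overlapped the controls. *Krt8*, not detected on any control array and on all 3 TGFβ1 arrays, was at least 3.32-fold higher. *Cspg4* and *Krt8* entered the test through the group where they were high. Of the 8 fibroblast markers, 4 fell with TNFα, where 10.2% of all probes tested were called by the rule given below. With TGFβ1 1 of these markers rose and 2 fell, where 18% of all probes were called. Their part in the results below was not tested. Of known targets of the treatments, *Ccn2* rose with TGFβ1 by 3.06 ± 0.39 (log2 difference from control ± SE), *Cxcl1* rose by 3.64 ± 0.21 with TNFα and by 4.14 ± 0.21 with IL-1β, and *Socs3* rose by 2.39 ± 0.20 with IL-6. The arrays lay on 2 slides. Slide 1 held controls 1 and 11, TGFβ1 7, TNFα 14, the IL-1β arrays 5 and 10 and the IL-6 arrays 3 and 8, and 35.5% of the probes tested differed between slides at a q-value below 0.05. By label number the arrays also fall into 3 runs, from 1 to 5, from 6 to 10 and from 11 to 15, each holding every group once. A probe is called when the q-value is under 0.05 and the fold-change in either direction reaches 1.5. Groups without overlap were common among all probes tested. The share was 39.1% for TGFβ1 against control, 29.6% for TNFα against control and 34.7% for TGFβ1 against TNFα. The model was also fitted with the slide, and with the runs and slide.

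The promoters of *Acta2* and *Myl9* are shown because theirs are the only windows of the members found here that hold a CArG-like match, in the strict form only for *Myl9*. RefSeq windows of GRCm38.p6 were found for 7 of the 10 genes (*Acta2*, *Cnn1*, *Myl9*, *Tpm1*, *Tpm2*, *Cald1* and *Lmod1*; *Cald1* has 2 windows), and the 250 bases before the start were searched. Capitals mark the CArG matches. The first lies at chr19:34255374-34255482 on the minus strand, and the second at chr2:156775278-156775399 on the plus strand.
Acta2: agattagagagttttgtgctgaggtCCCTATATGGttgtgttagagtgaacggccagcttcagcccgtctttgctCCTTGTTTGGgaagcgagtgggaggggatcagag
Myl9: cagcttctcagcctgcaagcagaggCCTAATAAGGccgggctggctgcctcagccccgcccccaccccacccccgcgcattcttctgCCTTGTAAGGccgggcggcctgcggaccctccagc
The CArG-like matches include the strict box. The CArG box (a pair of C, 6 bases of A or T, a pair of G, the same pattern on both strands) was present in this strict form only in *Myl9*, at -161 to -152, among the 8 windows, and in 1.47% of 32851 windows of all genes. A CArG-like form that allows 1 of the 6 middle bases to be C or G was present in *Acta2* (at -84 to -75 and -34 to -25) and in *Myl9* (also at -99 to -90), and in 8.59% of all windows. At least 2 CArG-like matches stood in 0.67% of all windows. The MCAT element CATTCC, read on both strands, was in the windows of *Acta2*, *Tpm1*, *Cald1* and *Lmod1*, and in 12.6% of all windows. The SMAD element CAGAC was in those of *Acta2* and *Cald1*, and in 42.2% of all windows.

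Calls in this paragraph are from the model without runs or slide unless stated. With TGFβ1, the actin-binding *Tagln* rose 3.2-fold and 1 of the 3 probes of *Tpm1* rose 1.64-fold. The brighter *Cnn1* probe, 3.76-fold above control, missed the threshold. *Acta2*, the usual marker of myofibroblasts, was 1.29- to 1.83-fold above control by its 3 probes, and none passed the test. *Myl9* was at 0.89 of control and *Tpm2* at 0.86 and 0.81, and neither passed. With TNFα, the same *Tpm1* probe rose 2.58-fold and the other two did not pass, while both probes of *Tpm2* fell to about 0.5 of control, and *Myl9* was at 0.42 of control without passing. With the runs and slide in the model, the brighter *Cnn1* probe was called with TGFβ1 (4.08-fold, q = 4.69e-05). So were *Actg2*, the dimmest *Acta2* probe (q = 0.0022) and a *Cald1* probe. With TNFα, that model also called *Myl9* (lower, q = 0.00011), the brighter *Cnn1* probe (lower), the dimmest *Acta2* probe (higher, q = 0.0024) and the brightest *Tpm1* probe (higher). No contractile probe was called with IL-1β or with IL-6 in either model. In bulk RNA, a change in the number of cells that express a gene and a change in RNA per cell cannot be told apart.

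With TGFβ1, 3 of 16 contractile probes were called (18.8%), where 18% of all probes tested were called, a share close to that of the whole array. Among the 3 was a dim *Cnn1* probe that entered the test only through its TGFβ1 arrays, which favors a higher level there. Without it, 2 of 15 were called, both higher, against 7.17% of all probes higher and 10.8% lower. Over these 15 probes the median log2 difference was 0.45 (0.49 over all 16), and that of all probes tested was 0.05. When runs and slide entered the model, 7 of 16 were called (6 of 15 without the dim probe, all higher) and 22.4% of all probes, and with the slide alone 3 (20.1% of all). With TNFα, 3 of 16 were called, 1 higher and 2 lower, where 10.2% of all probes were called (4.12% higher and 6.06% lower), and the median difference was 0.23 against 0.04 over all probes. Runs and slide in the model gave 7, 3 higher and 4 lower, against 15.4% of all probes, and the slide alone gave 4 (11.9%). Probes of the same gene are not independent, and the 2 lower calls with TNFα were both of *Tpm2* (r = 0.92 between its probes). Each of the 8 genes tested was also read by its brightest probe, without runs or slide. Then 1 gene rose with TGFβ1 (median difference 0.39) and 1 fell with TNFα (median 0.004).

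**Figure D1:**
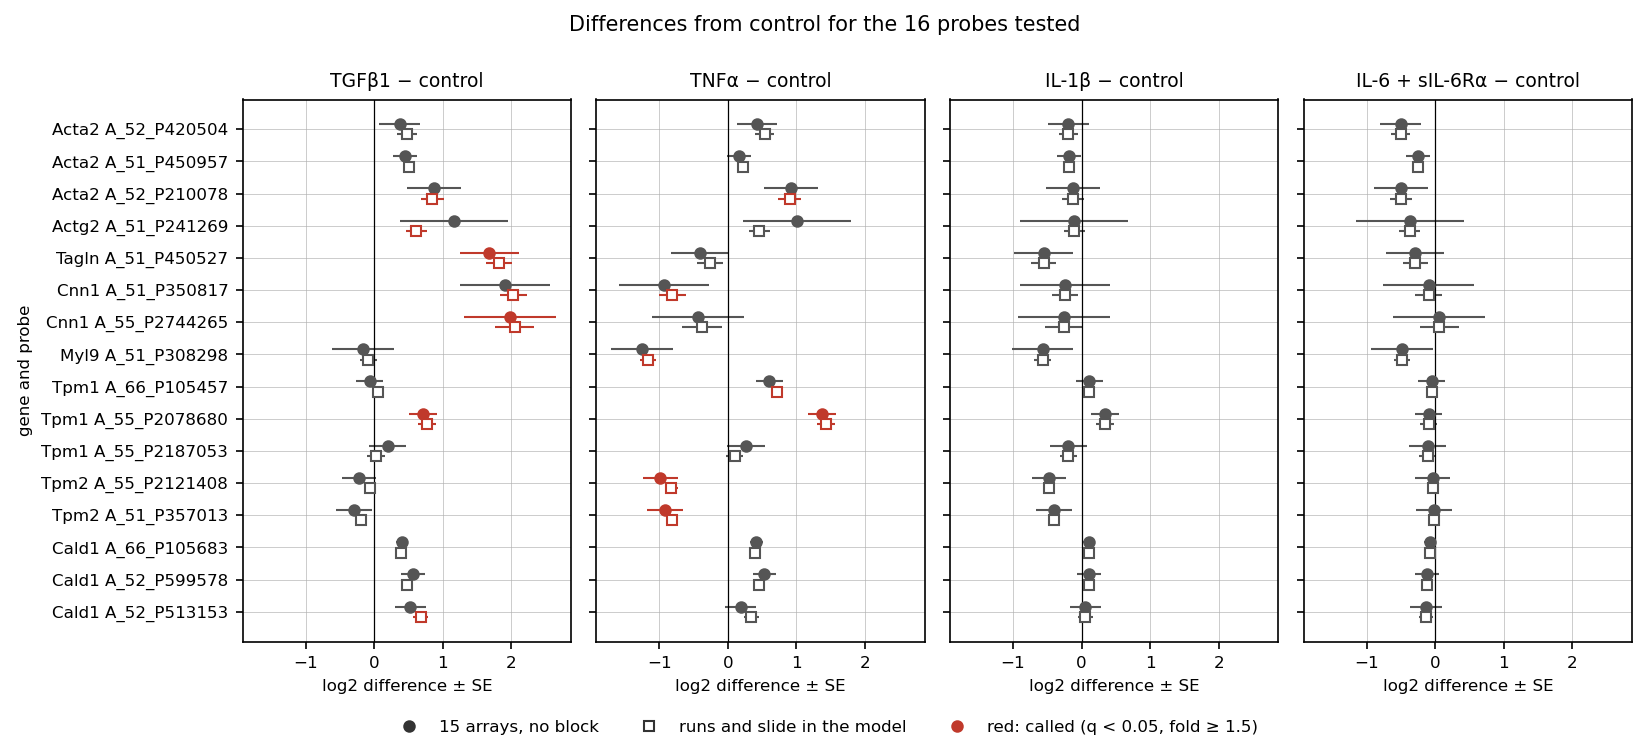
Log2 difference from control (x axis, ± SE) for the 16 contractile probes tested (y axis), with TGFβ1, TNFα, IL-1β, and IL-6 with sIL-6Rα. Filled circles are the model of 15 arrays without a block, open squares the model with the runs and slide, and red marks called probes. *Tagln* and *Cnn1* lie furthest to the right with TGFβ1, and with TNFα *Tpm1* lies to the right while *Myl9* and *Tpm2* lie to the left. No point is red with IL-1β or IL-6.

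Smooth muscle α-actin, *Acta2*, forms the thin filaments of contractile stress fibers. For its probe A_52_P420504, levels were 6.90, 6.54 and 7.73 on control 1, 6 and 11, and 7.11, 7.67 and 7.50 on TGFβ1 2, 7 and 12. On TNFα 4, 9 and 14 they were 7.19, 7.29 and 7.96. Control 11 was above all TGFβ1 arrays, so the groups overlapped. The 3 probes of *Acta2* followed each other over the 15 arrays (r = 0.87 to 0.92). Their log2 differences with TGFβ1 were 0.37 ± 0.30 (q = 0.40), 0.45 ± 0.18 (q = 0.085) and 0.87 ± 0.39 (q = 0.13). With TNFα, they were 0.42 ± 0.30 (q = 0.41), 0.16 ± 0.18 (q = 0.62) and 0.92 ± 0.39 (q = 0.15). The dimmest of them, A_52_P210078, was called with both treatments once runs and slide were in the model, at 0.85 ± 0.16 with TGFβ1 (q = 0.0022) and 0.90 ± 0.16 with TNFα (q = 0.0024). Without control 11, A_52_P210078 and A_51_P450957 were called with TGFβ1, at 1.24 and 0.60. The direct difference between TGFβ1 and TNFα was -0.06, 0.29 and -0.05 for the 3 probes, with a 95% interval of -0.70 to 0.59 for the first, and none was called.

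*Acta2* was higher with TGFβ1 than with IL-6 or IL-1β by some of its probes. With IL-6, A_52_P420504 was at 6.43, 6.29 and 6.94 on IL-6 3, 8 and 13, and with IL-1β at 6.75, 6.84 and 7.00 on IL-1β 5, 10 and 15. All TGFβ1 arrays lay above all IL-6 arrays and all IL-1β arrays, for each of the 3 probes. In each of these comparisons 40.7% of all probes tested did not overlap. Against IL-6 the differences were 0.87 ± 0.30 (q = 0.052), 0.70 ± 0.18 (q = 0.013, called) and 1.37 ± 0.39 (q = 0.025, called), and all 3 were called with the slide or with the runs and slide. Against IL-1β they were 0.56, 0.63 (q = 0.022, called) and 0.99, and all 3 were called with the runs and slide. The call against IL-1β was lost without TGFβ1 7, TGFβ1 12, IL-1β 5 or IL-1β 10 (0.57 to 0.62), under quantile normalization (0.41) and with the percentile over probes detected on all arrays (0.54). That of A_51_P450957 against IL-6 was lost without IL-6 8 (0.60) and under quantile normalization (0.52), and that of A_52_P210078 without TGFβ1 7, TGFβ1 12, IL-6 3 or IL-6 8 (1.09 to 1.43). The latter was also lost when only the TGFβ1, IL-6 and control arrays were fitted (q = 0.051).

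Smooth muscle γ-actin, *Actg2*, followed the slide more than the treatment. Its levels were 1.22, 3.06 and 1.90 on control 1, 6 and 11, and 3.61, 2.15 and 3.89 on TGFβ1 2, 7 and 12. Every array of slide 2 (3.06 to 3.89) was above every array of slide 1 (0.63 to 2.35), and the slide difference was 1.75 (q = 1.69e-05). Its difference from control was 1.16 ± 0.79 with TGFβ1 (q = 0.31) and 1.01 ± 0.79 with TNFα (q = 0.46). Within slide 1, TGFβ1 minus control was 0.60, and within slide 2 it was 0.70. With the runs and slide in the model it was 0.61 ± 0.16 (q = 0.0095), which was called, as were its differences of TGFβ1 from IL-1β (0.72) and from IL-6 (0.98) in that model. With the slide alone that from IL-6 was called too (0.95, q = 0.022). *Acta1* and *Actc1*, the skeletal and cardiac actins, shifted in the same way between slides, by 1.76 and 1.37, while the *Acta2* probes shifted by -0.22, -0.13 and 0.24. Muscle actin transcripts are nearly identical in their coding parts, and the deposited files hold no probe sequences, so a share of signal from another actin was not tested.

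**Figure D2:**
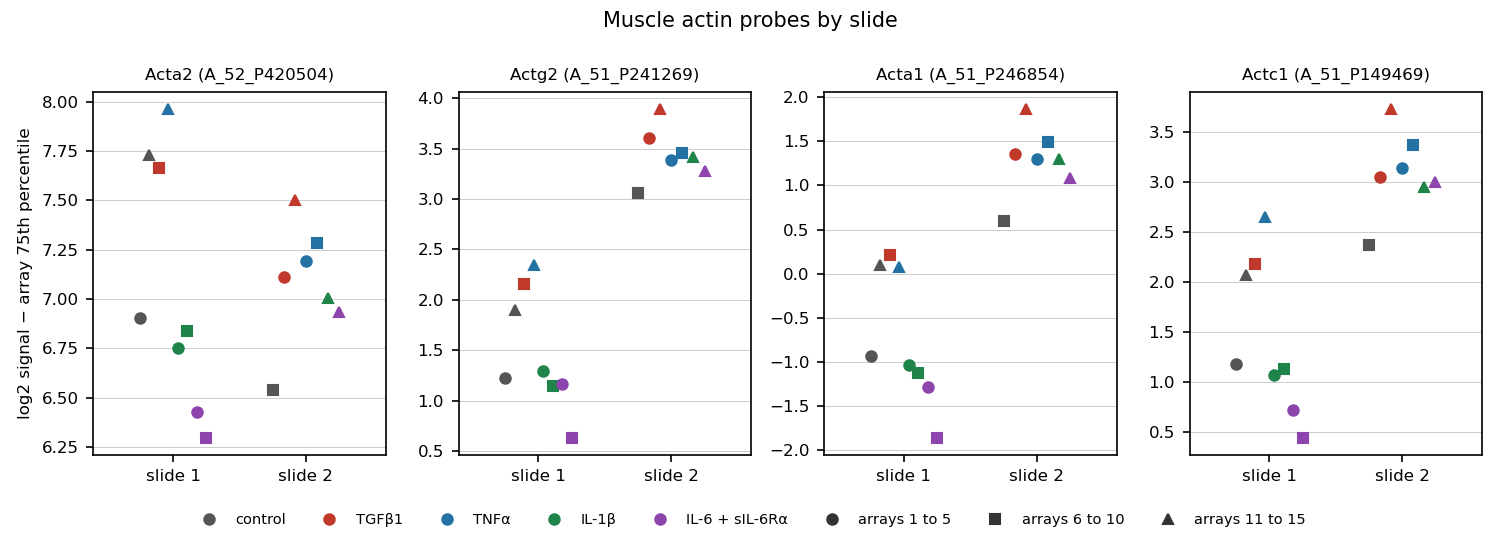
Level of 4 muscle actin probes (log2 signal minus the array's 75th percentile, y axis) on each of the 15 arrays, separated by slide (x axis), with colors for the groups and shapes for the runs of label numbers. For *Actg2* and *Acta1* every array of slide 2 lies above every array of slide 1, and for *Acta2* the slides overlap.

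Transgelin (*Tagln*), an actin-bundling protein of smooth muscle, was higher on every TGFβ1 array than on any other array. Its levels were 3.34, 3.74 and 3.80 on TGFβ1 2, 7 and 12, and 2.05, 1.07 and 2.73 on control 1, 6 and 11. On TNFα 4, 9 and 14 they were 1.60, 0.93 and 2.11. The IL-1β arrays lay between 0.89 and 1.65 and the IL-6 arrays between 1.00 and 2.02, all below the 3 TGFβ1 arrays. The difference from control was 1.68 ± 0.43 (3.2-fold, q = 0.013), within slide 1 it was 1.35 and within slide 2 it was 2.50, and within the runs it was 1.30, 2.66 and 1.07. Without control 6 it was 1.24 and no longer called. Against TNFα, TGFβ1 was higher by 2.08 ± 0.43 (4.24-fold, q = 0.0050), against IL-1β by 2.23 ± 0.43 (q = 0.0029) and against IL-6 by 1.97 ± 0.43 (q = 0.0061), and these 3 calls held without any single array. With TNFα the difference from control was -0.41 ± 0.43 (q = 0.60), and the 95% interval of -1.33 to 0.52 holds both a fall and a small rise.

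Basic calponin (*Cnn1*), which binds actin and inhibits the myosin ATPase, had 2 probes. The brighter, A_51_P350817, was at 1.19, 1.81 and 2.42 on TGFβ1 2, 7 and 12, and at -0.30, -1.14 and 1.13 on control 1, 6 and 11. On TNFα 4, 9 and 14 it was at -1.43, -1.68 and 0.01. All TGFβ1 arrays were above all control arrays, but TGFβ1 2 exceeded control 11 by little, and with the spread of the controls (SD 1.15) the difference of 1.91 ± 0.66 (3.76-fold) missed the threshold (q = 0.052). It was called with the runs and slide in the model, at 2.03 ± 0.20 (q = 4.69e-05), without control 11, at 2.53, and with the normexp background correction, at 1.78. Within slide 1 it was 1.39 and within slide 2 it was 2.95. The dim probe A_55_P2744265 was well above background on all 3 TGFβ1 arrays, on 2 of 3 control arrays and on 1 of 3 arrays of each other group, so it entered the test through the group where it was high. Its difference from control is given as a description. It was 1.98 ± 0.67 (q = 0.048) and shrank to 0.72 ± 0.18 with the normexp background correction, and the call was lost with the slide in the model (q = 0.052), without control 1, control 6, or any 1 of the TGFβ1 arrays (1.51 to 2.19), and under quantile normalization or the other percentile (2.00 and 1.90). Its differences from the other treatments, where 1 of 3 arrays was detected, were of the same kind and are not given. With normexp they were 0.69 to 0.80.

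At the brighter *Cnn1* probe, TGFβ1 was above TNFα by 2.84 ± 0.66 (7.15-fold, q = 0.011), with no overlap of the arrays. This call was lost without TNFα 9 (2.52). TNFα itself differed from control by -0.93 ± 0.66 (q = 0.41), which was called with the runs and slide, at -0.81 ± 0.20 (q = 0.011). Against IL-1β, TGFβ1 was higher by 2.15 ± 0.66 (q = 0.033), and against IL-6 by 2.00 ± 0.66 (q = 0.046). The call against IL-1β was lost without TGFβ1 7, TGFβ1 12, IL-1β 5 or IL-1β 10 (1.78 to 2.15). The call against IL-6 was lost without TGFβ1 2, TGFβ1 7, TGFβ1 12, IL-6 3 or IL-6 8 (1.67 to 2.31), and under quantile normalization (1.95). It was also lost when only the TGFβ1, IL-6 and control arrays were fitted (q = 0.057).

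**Figure D3:**
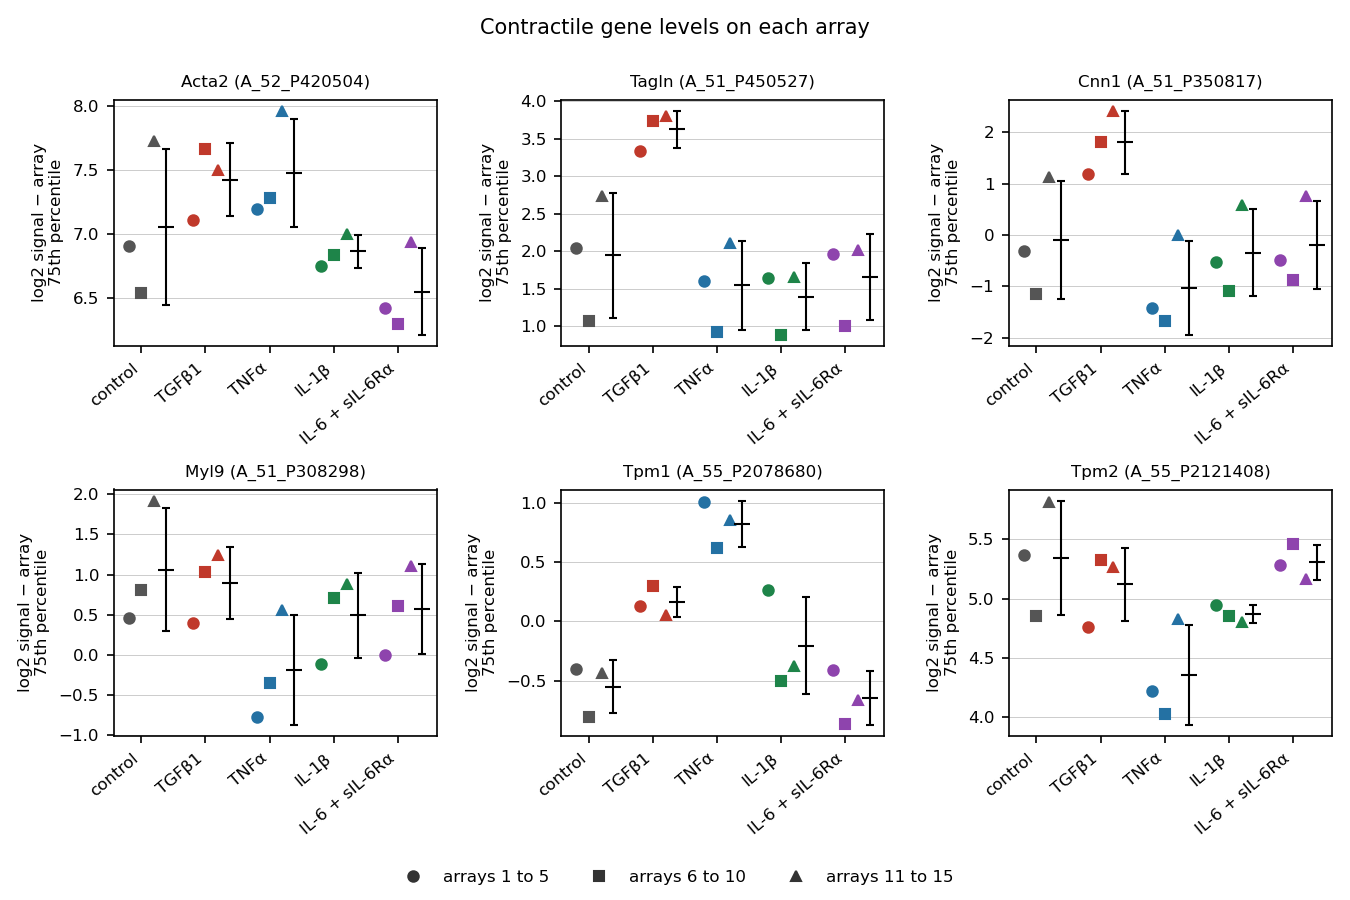
Levels (log2 signal minus the array's 75th percentile, y axis) of 6 contractile probes on each array of the 5 groups (x axis). Shapes mark the runs of label numbers, and the black bars are the group mean ± SD (n = 3). The TGFβ1 arrays stand above all others for *Tagln* (3.34 to 3.80), and the TNFα arrays are the highest for *Tpm1* (0.62 to 1.00). For *Tagln*, *Cnn1* and *Myl9* the array of the run 11 to 15 is the highest in every group, and for *Acta2*, *Tpm1* and *Tpm2* it is not.

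Tropomyosins are coiled-coil proteins that lie along the actin filament and gate access of myosin, and with TNFα both probes of *Tpm2* fell and 1 of 3 probes of *Tpm1* rose. *Tpm2* (β-tropomyosin), probe A_55_P2121408, was at 4.22, 4.03 and 4.83 on TNFα 4, 9 and 14, and at 5.37, 4.85 and 5.81 on control 1, 6 and 11. All TNFα arrays were below all control arrays, with TNFα 14 (4.83) just under control 6 (4.85). It fell by 0.99 ± 0.25 on the log2 scale (0.51 of control, q = 0.022), and its other probe, A_51_P357013, fell by 0.92 ± 0.26 (q = 0.038). Within slide 1 the differences were -0.76 and -0.57, and within slide 2 -0.73 and -0.85. For both probes, the call was lost without control 1, control 11, TNFα 4 or TNFα 9 (-1.004 to -0.67), and when the TNFα and control arrays were fitted alone. It held with the slide, and with the runs and slide, at -0.82 for both probes (q = 0.00012 for each).

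With TGFβ1, *Tpm2* was at 4.77, 5.33 and 5.27 on TGFβ1 2, 7 and 12, a difference from control of -0.22 ± 0.25 (q = 0.55). The difference between TGFβ1 and TNFα, 0.76 ± 0.25 at A_55_P2121408 (q = 0.061), was called with the slide (q = 0.010) and with the runs and slide (q = 0.00012). With the runs and slide, A_51_P357013 was called too (0.62, q = 0.00043). Without TNFα 14 both were called (1.00 and 0.87). With IL-1β, the brighter probe was at 4.95, 4.86 and 4.81, a difference from control of -0.47 ± 0.25 with a 95% interval of -1.02 to 0.07.

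*Tpm1* (α-tropomyosin) is spliced into many isoforms, and its 3 probes did not move together. A_55_P2078680, named for transcript NM_001164251, was at 1.00, 0.62 and 0.85 on TNFα 4, 9 and 14, and at -0.40, -0.81 and -0.44 on control 1, 6 and 11. On TGFβ1 2, 7 and 12 it was at 0.13, 0.30 and 0.06. The 3 groups did not overlap, with control lowest, TGFβ1 between and TNFα highest. The difference from control was 1.37 ± 0.20 with TNFα (2.58-fold, q = 0.00081), and this call held without any single array. With TGFβ1 it was 0.71 ± 0.20 (q = 0.022), which was lost without control 6, TGFβ1 2 or TGFβ1 7 (0.58 to 0.73). The step from TGFβ1 to TNFα was called as well (0.66 ± 0.20 higher with TNFα, q = 0.043), and was lost without any single array of the 6 (0.57 to 0.76).

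The brightest *Tpm1* probe, A_66_P105457, was higher with TNFα than with TGFβ1. Its levels were 4.50, 4.42 and 4.90 on the TNFα arrays, 4.03, 3.62 and 4.37 on control 1, 6 and 11, and 3.68, 4.19 and 3.95 on the TGFβ1 arrays. The difference with TNFα was 0.60 ± 0.19 (q = 0.061), called with the slide (0.71 ± 0.14, q = 0.0057), with the runs and slide (0.72 ± 0.09, q = 0.00026) and without control 11 (0.79). With TGFβ1 it was -0.07 ± 0.19 (q = 0.83). The direct difference, 0.67 ± 0.19 higher with TNFα (q = 0.034), was called, and was lost without TGFβ1 2, TGFβ1 12, TNFα 4 or TNFα 14 (0.52 to 0.72). The last probe, A_55_P2187053, differed from control by 0.20 ± 0.27 with TGFβ1 (q = 0.64) and 0.27 ± 0.27 with TNFα (q = 0.58), and by 0.53 between slides (q = 0.0022). Over the 15 arrays it correlated with the others by r = -0.13 and 0.18, while those correlated with each other by r = 0.72.

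**Figure D4:**
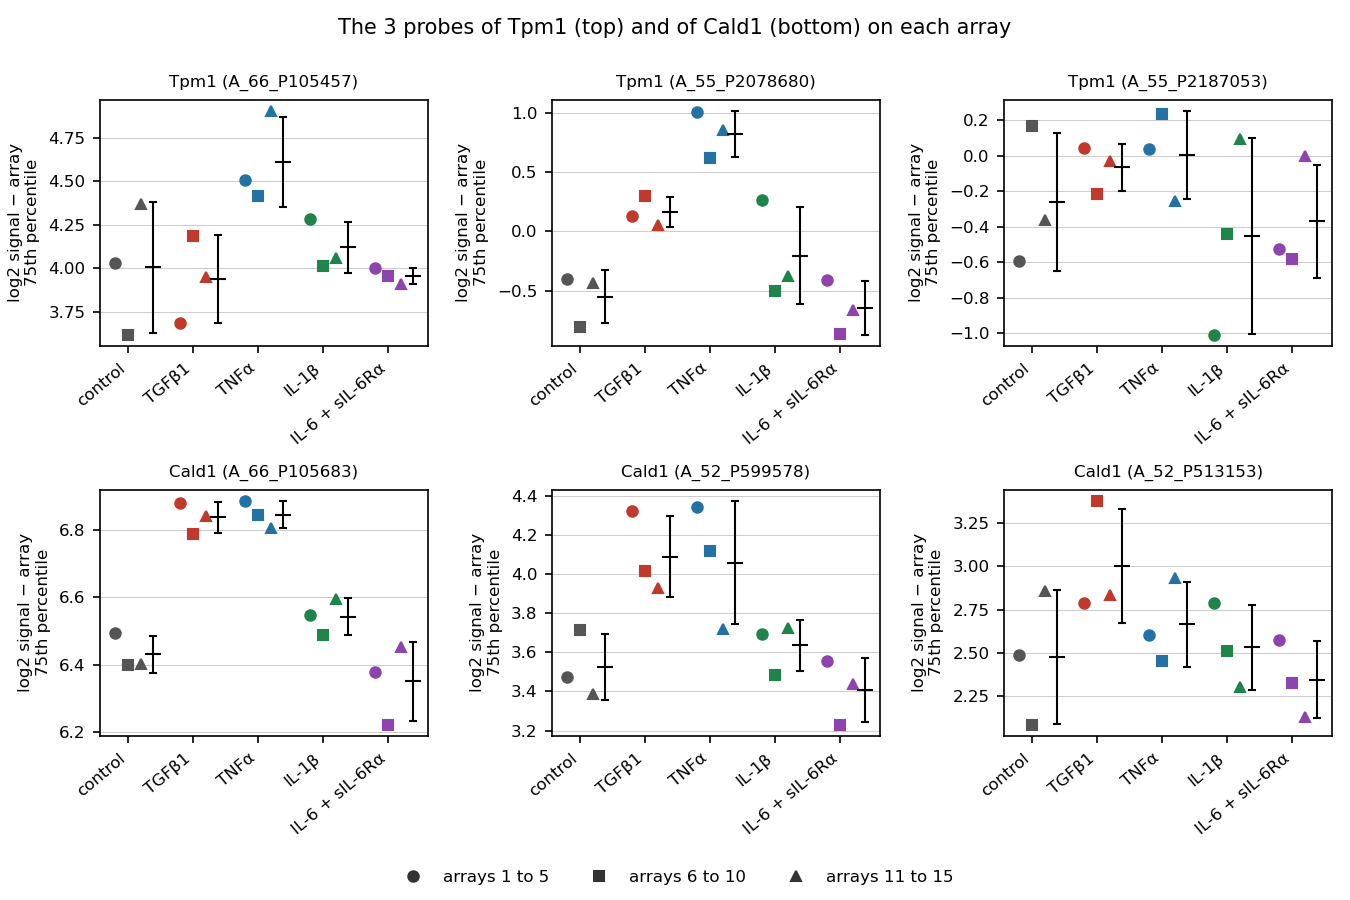
Levels (log2 signal minus the array's 75th percentile, y axis) of the 3 probes of *Tpm1* (top) and of *Cald1* (bottom) on each array of the 5 groups (x axis), with shapes for the runs and bars for the mean ± SD (n = 3). The TNFα arrays are the highest for A_55_P2078680 and A_66_P105457 and not for A_55_P2187053. For A_66_P105683 of *Cald1*, the TGFβ1 and TNFα arrays form a tight step above the rest.

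Caldesmon (*Cald1*), which binds actin, tropomyosin and myosin, was a little higher with both treatments. The brightest probe, A_66_P105683, was at 6.88, 6.79 and 6.84 on the TGFβ1 arrays, 6.89, 6.85 and 6.81 on the TNFα arrays, and 6.49, 6.40 and 6.40 on the control arrays. The spread within each of these 3 groups was small (SD 0.04 to 0.05), and neither treated group overlapped the controls. The differences were 0.41 ± 0.09 with TGFβ1 (1.33-fold, q = 0.0063) and 0.42 ± 0.09 with TNFα (1.33-fold, q = 0.0095), both past the q threshold and under the fold-change of 1.5. Between the treatments the difference was -0.01 ± 0.09, with a 95% interval of -0.20 to 0.19. A_52_P599578 differed by 0.56 ± 0.17 with TGFβ1 (1.48-fold, q = 0.029) and 0.53 ± 0.17 with TNFα (q = 0.059). It was called with TGFβ1 without control 6 (0.66) or TGFβ1 12 (0.64), and with TNFα without TNFα 14 (0.70). A_52_P513153 differed by 0.53 ± 0.23 with TGFβ1 (q = 0.11), called with the slide at 0.67 ± 0.13 (q = 0.0020) and with the runs and slide at 0.68 ± 0.11 (q = 0.00080), and by 0.19 ± 0.23 with TNFα (q = 0.65). With the slide, and with the runs and slide, TGFβ1 also exceeded IL-1β (0.62 and 0.63) and IL-6 (0.81 and 0.82) at this probe, all of them called.

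Of the myosin subunits, *Myl9*, the regulatory light chain whose phosphorylation starts contraction, was at -0.77, -0.35 and 0.56 on TNFα 4, 9 and 14, and at 0.46, 0.80 and 1.92 on control 1, 6 and 11. TNFα 14 was above control 1, so the groups overlapped. On TGFβ1 2, 7 and 12 it was at 0.39, 1.03 and 1.25, which overlapped the controls. The difference with TNFα was -1.25 ± 0.45 (0.42 of control, q = 0.095). It was -1.23 in the run 1 to 5, -1.15 in the run 6 to 10 and -1.36 in the run 11 to 15, and with the runs and slide it was called at -1.16 ± 0.12 (q = 0.00011). It was also called without TNFα 14, at -1.62. With TGFβ1 the difference was -0.17 ± 0.45 (q = 0.82). TGFβ1 exceeded TNFα by 1.08 ± 0.45 (q = 0.14), called with the runs and slide (1.08 ± 0.12, q = 0.00011). Of the members with a promoter window, *Myl9* holds the strict CArG box shown above.

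The smooth muscle myosin heavy chain *Myh11*, the marker of differentiated smooth muscle, had 3 probes (A_51_P362429, A_55_P1988531 and A_55_P2734582), none well above background on any of the 15 arrays. Leiomodin 1 (*Lmod1*), which nucleates actin filaments in smooth muscle, had 1 probe, A_66_P123617, well above background on control 6 alone (-5.42). No fold-change is given for these genes.

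With IL-1β, 0 of 16 contractile probes were called by limma, where 0.252% of all probes tested were called (0.245% higher and 0.00682% lower), and 0 had an unadjusted p below 0.05. The differences from control ran from -0.57 (*Myl9*) to 0.34 (*Tpm1*, A_55_P2078680), with a median of -0.19. With IL-6 and sIL-6Rα, again 0 of 16 were called, where 0.0648% of all probes were called, and 0 had an unadjusted p below 0.05, with differences from -0.51 (*Acta2*, A_52_P420504) to 0.06 (the dim *Cnn1* probe) and a median of -0.11. Both counts stayed 0 with the slide (0.358% and 0.126% of all probes called) and with runs and slide (1.09% and 0.777%), where *Tpm2* A_55_P2121408 (-0.47, q = 0.027) and *Myl9* (-0.57, q = 0.049) passed the q threshold with IL-1β and not the fold-change. For *Tagln* the 95% interval of the difference was -1.48 to 0.37 with IL-1β and -1.22 to 0.64 with IL-6. With 3 arrays a group, both intervals hold a fall and a small rise.

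Direct comparisons set TGFβ1 beside each other treatment. Against TNFα, 5 of 16 probes were called, 3 higher with TGFβ1 (*Tagln* and both *Cnn1* probes) and 2 lower (*Tpm1*), or 4 of 15 without the dim *Cnn1* probe, where 11.8% of all probes were called (5.02% higher and 6.81% lower). The slide gave 6 (13.5% of all probes), and runs and slide 8, 6 higher and 2 lower (16.1%), or 7 without the dim probe. Against IL-1β, 4 were called, all higher, or 3 without the dim probe, where 17% of all probes were called (6.29% higher and 10.7% lower). The slide gave 5 (19.6% of all probes), and runs and slide 8, all higher (22.1%), or 7 without it. Against IL-6, 6 were called, all higher, where 16.4% were called (6.29% higher and 10.1% lower). The slide gave 9 (19% of all probes), and runs and slide 10 (21.4%), or 9 without the dim probe. Beyond *Tagln* and *Cnn1*, the calls against IL-6 were a pair of *Acta2* probes, *Tpm1* A_55_P2078680 (0.81 ± 0.20, q = 0.013) and *Cald1* A_52_P599578 (0.68 ± 0.17, q = 0.013). Without IL-6 8 both were lost (0.70 and 0.59), and that of *Cald1* also without TGFβ1 2 (0.56) and under quantile normalization (0.56). Between IL-1β and TNFα, both of which raised *Cxcl1*, 1 probe was called, where 4.83% of all probes were (3.11% higher and 1.72% lower). It was *Tpm1* A_55_P2078680, with a difference of -1.03 ± 0.20 (IL-1β minus TNFα, q = 0.011), a call lost without TNFα 4 (-0.94) or IL-1β 10 (-0.88). With the slide 2 were called (6.21%), the second being *Tpm1* A_66_P105457 (-0.59, q = 0.024), and with the runs and slide 5, 1 higher and 4 lower (10.5%), the latter also for 2 *Acta2* probes (-0.73 and -1.02), *Tpm1* A_66_P105457 (-0.61) and *Myl9* (0.60). The comparisons share arrays and several genes have more than 1 probe, so the counts are not independent. By the brightest probe of each of the 8 genes, 2 were higher and 1 lower with TGFβ1 than with TNFα. Against IL-1β 2 were higher with TGFβ1, against IL-6 2, and between IL-1β and TNFα 0 were called.

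The array of the run 11 to 15 was the highest of its group in 5 of 5 groups for *Tagln*, both *Cnn1* probes, *Myl9*, *Acta2* A_52_P210078 and *Tpm2* A_51_P357013. It was so in 4 groups for the other *Acta2* probes and in 3 for *Actg2*. For *Tpm2* A_55_P2121408 it was so in 2, for the *Cald1* probes in 1 or 2 and for the *Tpm1* probes in 0 or 2. The share over all probes tested was not taken. In the controls, *Cnn1* A_51_P350817 was at 1.13 on control 11 and at -1.14 on control 6, a gap larger than its difference of 1.91 from control with TGFβ1. The part of the runs in the results was tested only through the model with the runs and slide.

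Relatives of the contractile genes and their regulators were read from lists, each gene by its brightest probe. Beside the counts of these lists stand the shares of all probes tested that were called. These were 18% with TGFβ1, 10.2% with TNFα, 0.252% with IL-1β and 0.0648% with IL-6. Of 16 non-muscle and striated relatives tested, 1 rose and 1 fell with TGFβ1, and 2 fell with TNFα. *Cnn3*, the acidic calponin, rose with TGFβ1 by 0.62 ± 0.10 (q = 0.00070), a call lost under quantile normalization (0.47), the other percentile (0.55) or without TGFβ1 7 (0.54). *Myl12b*, a non-muscle regulatory light chain, fell with TGFβ1 by 1.09 ± 0.17 (q = 0.00063) and with TNFα by 0.59 ± 0.17 (q = 0.035), and the latter was under the fold-change of 1.5 with the slide (-0.54) or runs and slide (-0.55), and lost without control 6, control 11, TNFα 4 or TNFα 14 (-0.62 to -0.48). The other *Myl12b* probe differed by -1.14 with TGFβ1 and by -0.49 with TNFα. *Cnn2* fell with TNFα by 0.64 ± 0.14 (q = 0.0092), lost without control 11 (-0.51) or TNFα 4 (-0.58). The non-muscle β-actin *Actb* differed by 0.17 ± 0.10 with TGFβ1 (q = 0.23).

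Of 13 other smooth muscle genes tested, 3 rose and 3 fell with TGFβ1, and 1 rose and 1 fell with TNFα. *Nexn*, an actin-binding protein of the Z-disk, rose with TGFβ1 by 1.21 ± 0.14 (q = 0.00012). *Mylk*, the myosin light chain kinase that phosphorylates *Myl9* protein, fell with TGFβ1 by 2.49 ± 0.48 (q = 0.0028), within slides by 1.48 and 3.66, and its other probe by 2.61. *Rgs5*, a pericyte regulator of G protein signaling, was not well above background on any TGFβ1 array and was at least 3.91-fold lower than in control (q = 1.14e-05), and it fell by 1.67 ± 0.20 with TNFα (q = 0.00016), a call lost with the normexp background correction (-0.58). *Ppp1r14a*, an inhibitor of the myosin phosphatase, rose with TNFα by 2.57 ± 0.31 (5.94-fold, q = 0.00017).

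Of 13 genes of SRF and myocardin-related transcription tested, 1 rose and 3 fell with TGFβ1, and 4 fell with TNFα. *Mrtfa*, the actin-sensing cofactor of SRF, rose with TGFβ1 by 0.72 ± 0.17 (q = 0.0094), lost without control 6 (0.53) and under quantile normalization (0.56). The other *Mrtfa* probe differed by 0.41 with TGFβ1, under the fold-change threshold. *Klf4*, a repressor of smooth muscle genes, fell by 2.07 ± 0.16 (0.24 of control, q = 4.43e-06) and *Vgll3* by 1.27 ± 0.13 (q = 2.99e-05). *Srf* itself differed from control by 0.01 ± 0.19 with TGFβ1 (q = 0.97). With TNFα, the LIM protein *Fhl2* fell by 1.34 ± 0.32 (q = 0.017), lost without control 6, TNFα 4 or TNFα 14 (-1.25 to -1.03), and *Gata6* fell by 0.78 ± 0.11 (q = 0.00073), lost with the normexp background correction (-0.50). In these 3 lists, no gene was called with IL-1β or IL-6.

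By Pearson correlation over the 15 arrays, among 13487 genes with a tested probe, the genes outside the set most like *Tagln* included *Ak5* (r = 0.98), *Bok* (0.97), *Hnrnpll* (0.97) and *Med10* (0.97). *Mrtfa* ranked 7 (0.96), and *Cnn1*, within the set, had an r of 0.92. Those most like *Acta2* were *Cdc37* (0.92), *Prkcsh* (0.91), *Sfxn2* (0.90), *Lrrfip1* (0.89) and *Zwint* (0.88), while *Tagln* had an r of 0.58 with *Acta2*. The slide difference, estimated in a model that also held the groups, was then removed. *Actc1* (0.99) and *Acta1* (0.97) became the most like *Acta2*, up from 0.59 and 0.49, and *Actg2* reached 0.95, up from 0.39. These arrays share groups, runs and slides, so the correlations only describe them.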

How the data were processed

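RNA of 15 MEF cultures was hybridized by the authors to 1-color Agilent arrays and extracted with Agilent Feature Extraction 10.7.3.1, per the submitters' processing notes. The deposited intensity is the processed signal, after background subtraction and spatial detrending and without normalization between arrays. The series table repeats these values (largest difference 0). The array design used an older assembly (mm9), so genes were named through RefSeq identifiers with a GRCm38.p6 table (33767 of 56605 probes).

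Here, the log2 signal of 59305 non-control spots was averaged per probe after subtracting the array's 75th percentile (507.5 to 682.9 before log2). limma 3.58.1 in R 4.3.3 was fitted on all 15 arrays, with two-sided moderated tests and Benjamini-Hochberg adjustment over 29334 probes. A probe counted as well above background where at least 0.5 of its spots were marked so. The scripts were tested on simulated data. Motifs were searched in 32851 RefSeq windows.

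The members and lists were chosen with earlier results of these data known. Named were all 10 members with every probe, and of each list at most 3 genes with TGFβ1 and 2 with each other treatment. *Actb*, *Srf*, *Acta1*, *Actc1*, *Smtn*, *Cspg4*, *Krt8* and *Krt18* were named after their values were seen. A gene and a list that fall under these rules are not reported here. The paper speaks of independent experiments without saying which arrays share one, so without a block p-values measure the spread between these arrays. Arrays of the same run deviated together once the slide was removed (r = 0.114 to 0.672 for the 30 same-run pairs from different groups, against 2 of 60 pairs of different runs with an r over 0.1). With the slide kept, 12 of 30 and 28 of 60 pairs were over 0.1. The runs were therefore read as pairing the arrays. Alternatives were normexp (offset 50, on the median signal, a column chosen after seeing the files), quantile normalization, the percentile over probes detected on all arrays, no filter on dim probes, the slide, the runs with the slide, within slides and runs (the latter added after seeing the data, as were counts without the dim *Cnn1* probe), only the groups compared, q alone, and leaving out each array.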

Additional observations from a re-analysis of the deposited data

How the results depend on the processing

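The counts of called contractile probes depended on the block, on the filter and on single arrays. All counts here include the dim *Cnn1* probe. With the block, the share of all probes called rose too, from 18% to 22.4% with TGFβ1 and from 10.2% to 15.4% with TNFα. That share was not taken with no filter, with q alone, with only the groups compared or without single arrays. Counts under those settings are therefore not set against the whole array. With TGFβ1 against control, 3 became 7 with the runs as a replicate block and the slide, 1 with no filter on dim probes (56605 probes adjusted over) and 5 with q alone. With TNFα, 3 became 7 with that block, 1 with no filter and 1 with only the TNFα and control arrays. TGFβ1 against TNFα gave 5, then 8 with the block and 2 with no filter. TGFβ1 against IL-1β gave 4, then 8 and 1. TGFβ1 against IL-6 gave 6, then 10 with the block. IL-1β against TNFα gave 1, then 2 with the slide and 5 with the block. Counts with IL-1β or IL-6 against control were 0 under all alternatives run.

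Leaving out each array in turn gave 1 to 6 calls with TGFβ1 (1 without control 6, TGFβ1 2 or TGFβ1 7, and 6 without control 11), 1 to 5 with TNFα (1 without control 1, TNFα 4 or TNFα 9, and 5 without TNFα 14), 0 to 0 with IL-1β and with IL-6, 2 to 5 for TGFβ1 against TNFα (2 without TGFβ1 12, TNFα 4 or TNFα 9, 3 without TGFβ1 7), 1 to 4 against IL-1β (1 without TGFβ1 7, TGFβ1 12 or IL-1β 10, 2 without IL-1β 5), 1 to 9 against IL-6 (1 without IL-6 8, 9 without IL-6 13) and 0 to 1 for IL-1β against TNFα (0 without TNFα 4 or IL-1β 10). Among the named genes outside the set, the replicate block changed the call of *Myl12b* with TNFα (-0.55) and no other. The cause of these shifts was not tested. Normexp, quantile normalization and the other percentile kept each count within 1.5 times, and no called contractile probe changed its direction under any alternative with a test. With 3 arrays a group, *Cnn1*, *Myl9* and *Actg2*, whose SE were 0.45 to 0.79, could only be called at large differences without the block. Dim probes near background (*Myh11*, *Lmod1*, *Cnn1* A_55_P2744265) are limited by signal.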
